A study of Mus musculus with 179 samples.

Results

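Fibroblasts of the meninges, the membranes around the brain, were set against astroglia-like cells among single cells of newborn mice. Both classes were chosen by measured values in TPM, a share of transcripts corrected for gene length: a cell with Csf1r under 10 TPM was a fibroblast where Col1a1 reached 10 TPM and Aldh1l1 did not. Such a cell was astroglia-like where Aldh1l1, Fabp7 and Slc1a3 all reached 10 TPM and Col1a1 did not. The rule found 31 fibroblasts and 14 astroglia-like cells, 45 of the 179 cells of the series, and 114 cells with Csf1r at 10 TPM or more, called macrophages here, against which both were set. The other 20 cells met none of these rules and were not used.

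All mice were naive and wild type. Newborn (P0) mice gave 99 cells labelled meninges. Pups of P1 gave 40 cells, of P2 24 and of P3 16, all of them labelled as both meninges and cortex. The labels' protocols describe 2 routes, namely picking of single cells after magnetic enrichment for Pdgfrb, a receptor of mural cells and fibroblasts, and flow sorting of cells that had taken up the dye DiI from the space around the brain. Both routes stand on every cell's label, and no strain, sex or animal is named. Of the 31 fibroblasts 30 were from P0 and 1 from P3, whereas 3 astroglia-like cells were from P0, 6 from P1, 4 from P2 and 1 from P3. Class therefore cannot be told apart from age, tissue and route, and each class was treated as 1 sample with no test and no p-value.

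Meningeal fibroblasts secrete the collagens and the pial basement membrane to which glial endfeet attach, and the signals CXCL12 and retinoic acid, which act on the cortex beneath. Astroglia and the radial glia that precede them clear glutamate and GABA, make serine and cholesterol for neurons and carry Notch and SOX programs of the neural lineage. Macrophages of the brain and its borders express Csf1r, the receptor for colony stimulating factor.

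The values that made the classes are a description. Col1a1, a chain of type I collagen, was at 13.1 and 52.2 TPM in the lowest fibroblasts, and the highest cell just outside held 0.12 TPM. Aldh1l1, a folate enzyme of astroglia, was at 33.5 TPM in the lowest astroglia-like cell and at 0 just outside. For Csf1r the lowest macrophage held 10.6 TPM and the highest cell below the line 3.57 TPM. One cell without Csf1r held both Col1a1 and Aldh1l1 and was left out of both classes. Slc1a3, the glutamate transporter GLAST, was also at 10 TPM or more in 28 of 31 fibroblasts, with a median of 324 TPM against 2354 TPM in astroglia-like cells. Fabp7, a fatty acid carrier of glia, reached that level in 4 of 31 fibroblasts and in 48 of 114 macrophages.

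All levels from here on are TPM after each cell was rescaled to a sum of 1000000, and a gene was counted as held by a cell at 10 or more. The listed TPM of 13 of 31 fibroblasts and 1 of 14 astroglia-like cells summed to less than 900000 before rescaling. Among them were all 12 fibroblasts whose names begin with D, a letter the labels do not explain. The 1 astroglia-like cell, with a sum of 414976, was of letter D too and was 1 of the 3 from P0. Median depth, read from the smallest FPKM steps with a fragment length that was assumed and not measured, was about 1955110 fragments in fibroblasts, 2005346 in astroglia-like cells and 2034222 in macrophages. The median number of genes at 1 TPM or more was 4237, 4636.5 and 4090 in the same order. It was 3663 in the 12 fibroblasts of letter D and 5583 in the 7 astroglia-like cells of letter B. The part of these differences in the calls below was not tested. Of 19 fibroblast markers outside the rule, fibroblasts held a median of 13 (8 to 17) and astroglia-like cells 0 (0 to 2). Of 21 astroglial markers outside the rule, astroglia-like cells held a median of 17 (11 to 18) and fibroblasts 3 (1 to 5). Macrophage markers were held at a median of 1 of 20 in both classes, at most 10 in a fibroblast and 5 in an astroglia-like cell. Neuron markers were held at a median of 2 of 15 in astroglia-like cells, with a highest count of 6, and at a median of 0 and a highest count of 1 in fibroblasts. Haemoglobin and other erythroid genes summed to as much as 241479 TPM in 1 fibroblast. Without the 2 fibroblasts, 2 astroglia-like cells and 1 macrophage that held at least 5 macrophage (outside macrophages), neuron, mural or endothelial markers, the calls described next numbered 451 in fibroblasts and 1099 in astroglia-like cells, with 415 of 449 and 929 of 1065 among them. The part of erythroid transcripts in the results was not tested. One of the 114 macrophages, the one with the lowest Csf1r, held all 3 astroglial genes of the rule, 20 of the 24 astroglial markers and 3 of the 20 macrophage markers.

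A gene was compared where the shares of cells holding it, averaged over both classes, reached 20%. It was called where the class means of log2(TPM + 1) differed by at least 2 and the ratio of mean TPM was at least 2-fold the same way. Of 6761 compared genes 449 were called higher in fibroblasts (6.64%) and 1065 higher in astroglia-like cells (15.8%). The median difference over all compared genes was -0.58 on the log2 scale, fibroblasts minus astroglia-like cells, so differences below are read against that shift. Of the compared genes, 2450 were held often enough in 1 class to pass whatever the other class held, and not in the other. The filter favours a difference in these genes but does not fix one, as the other class may hold them nearly as often. Among the called genes, 101 higher in fibroblasts were at 0 in every astroglia-like cell and 113 higher in astroglia-like cells were at 0 in every fibroblast. A difference against such a class depends on the added 1 and is no fold change. Taking 3 cells as the limit that a count of 0 allows, 0 of 14 cells allows a share of up to 21.4% and 0 of 31 of up to 9.68%, for counting error alone.

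**Figure D1:**
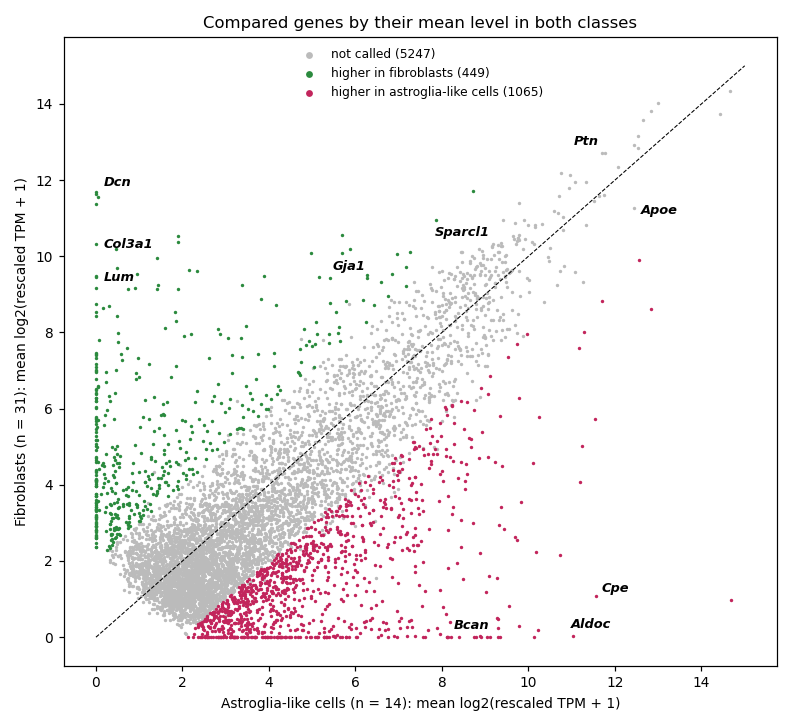
Mean log2(rescaled TPM + 1) of each compared gene in astroglia-like cells (horizontal axis, n = 14) and in fibroblasts (vertical axis, n = 31); green and red points are the 449 and 1065 genes called higher in fibroblasts and in astroglia-like cells, grey points are not called, and the dashed line marks equal levels. Dcn and Col3a1 lie on the left edge, Aldoc and Bcan on the bottom edge, and Ptn and Apoe near the line.

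The genes farthest above astroglia-like cells in fibroblasts coded for secreted proteins of the matrix and for paracrine signals. Dcn, the small proteoglycan decorin (ENSMUSG00000019929, GRCm38 chr10:97479609-97518143), had a lowest value of 835, a median of 3535 and a highest value of 7308 TPM over the 31 fibroblasts and was at 0 in all 14 astroglia-like cells. Igf2, an imprinted growth factor (ENSMUSG00000048583, chr7:142650766-142666816), ran from 385 through a median of 4103 to 8829 TPM in fibroblasts and was at 0 in every astroglia-like cell. Both genes were held by all fibroblasts, and their ranges did not meet those of the glial cells.

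Cxcl12, a chemokine of the meninges (ENSMUSG00000061353, chr6:117168535-117181367), was between 372 and 8515 TPM in fibroblasts, with a median of 3433, and at most 0.458 in an astroglia-like cell. The differences were 11.68 for Dcn, 11.63 for Igf2 and 11.52 for Cxcl12, with SDs over fibroblasts between 0.80 and 1.27 on the log2 scale. Col3a1, the chain of type III collagen that accompanies type I, ran from 195 to 5704 TPM with a median of 1337 and was at most 0.09 in astroglia-like cells. These 3 differences and that of Col3a1, at 10.32, were each larger than the SD over cells in either class.

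The next genes were high in most fibroblasts but missing from some. Apod, a lipid carrier of connective tissue and nerve sheaths, was held by 30 of 31 fibroblasts at a median of 3475 TPM, with the highest at 12738, and was at 0 in all astroglia-like cells. Vtn, the adhesive glycoprotein vitronectin, was held by 27 of 31 fibroblasts, from 0 to 13283 TPM, and by 1 of 14 astroglia-like cells at 36.1. Slc6a13, the GABA and taurine transporter GAT2 of the leptomeninges, was held by 28 of 31 at a median of 1537 TPM and by no astroglia-like cell. Lum, the proteoglycan lumican, was held by 30 of 31 at a median of 1197. The ranges of Apod, Vtn, Slc6a13 and Lum overlapped between the classes through the fibroblasts at or near 0.

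Of the 12 genes with the largest differences, which also included Gpc3, Emp3, Pcolce and Serpinf1, the ranges of 4 did not overlap. A ranking by difference favours ranges that are apart, and the share of such genes among all compared genes is not given here. Emp3, a small membrane protein, was held by 87 of 114 macrophages as well. Serpinf1, the secreted factor PEDF, reached 2908 TPM in 1 of the 3 astroglia-like cells that held it. Within P0, where 30 fibroblasts stood against 3 astroglia-like cells, all 12 differences were at least 2 in the same direction. Those cells were also among the cells that ranked the genes, so this is no separate check. The 1 fibroblast from P3 held 11 of these 12 genes, with 5781 TPM of Dcn, 7777 of Igf2 and 8185 of Vtn, while Gpc3 was at 2.70.

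**Figure D2:**
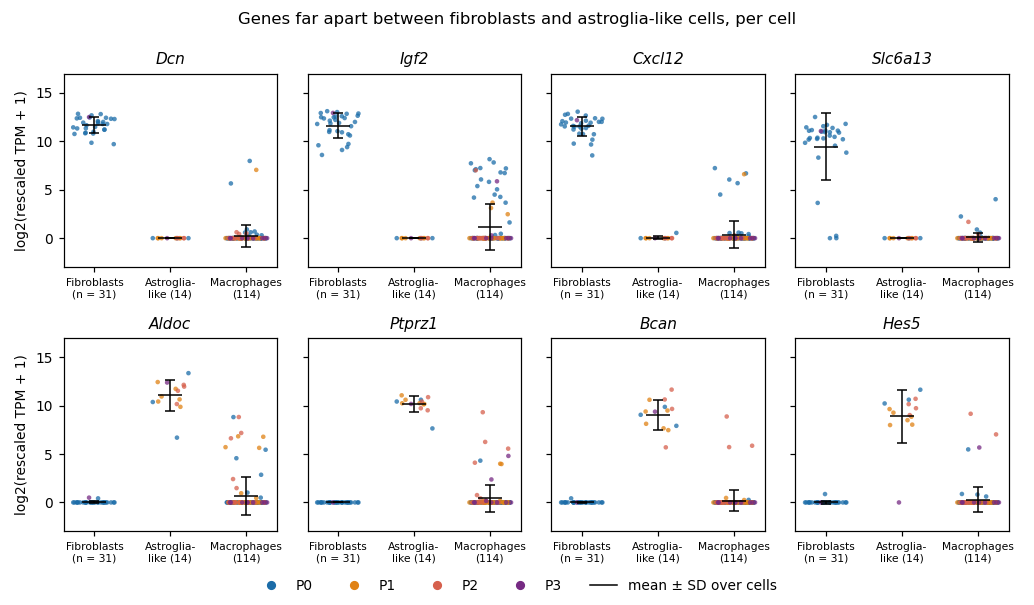
Level per cell, as log2(rescaled TPM + 1), of 4 genes high in fibroblasts (top) and 4 high in astroglia-like cells (bottom), with cells colored by age and bars giving the mean and SD over cells. The 31 fibroblasts and 14 astroglia-like cells lie apart for Dcn, Igf2, Cxcl12, Aldoc, Ptprz1 and Bcan, while single cells at 0 make Slc6a13 and Hes5 overlap.

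Matrix genes divided between the classes by family. Of 11 compared collagens other than type IV and the rule's Col1a1, 9 were called higher in fibroblasts and none in astroglia-like cells, with a median difference of 4.62. Col1a2, the partner chain in type I collagen, ran from 266 to 2561 TPM, whereas 12 of 14 astroglia-like cells were below 10. The type VI collagens Col6a1 and Col6a2, which form beaded filaments at cell surfaces, were each held by 29 of 31 fibroblasts and 0 of 14 astroglia-like cells. Col13a1, a membrane-bound collagen, was held by 15 fibroblasts and no glial cell.

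Basement membrane genes followed, with 14 of 17 compared members called in fibroblasts and none in astroglia-like cells (median difference 3.62). Col4a2, a type IV collagen chain, was held by all 31 fibroblasts, up to 370.2 TPM, and reached 0.71 in astroglia-like cells. Nid1, the linker nidogen, was held by 29 of 31 at a median of 134 TPM. The laminin chains Lama1, Lama2, Lama4, Lamb1 and Lamc1 were all on the fibroblast side, with Lama2 held by 25 of 31 and Lama1, a chain of the pial membrane, by 21 of 31. The 3 compared members that were not called were Lamb2, Agrn and Fbln2. Agrn, the linker agrin, was held by 20 of 31 fibroblasts and 8 of 14 astroglia-like cells at medians of 40.8 and 39.9 TPM, and Fbln2, fibulin 2, by 10 of 31 and 8 of 14 with a difference of -1.83. Lama5, which did not pass the filter, was held by 3 astroglia-like cells and no fibroblast. Sparc, a matricellular protein, was high in both, at medians of 2017 and 324 TPM, and was called in fibroblasts with a difference of 3.09.

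Proteoglycans split in opposite directions. Of 5 compared small leucine-rich proteoglycans, 4 (Dcn, Lum, Bgn, Ogn) were called in fibroblasts, and all 4 compared chondroitin sulfate proteoglycans of neural tissue were called in astroglia-like cells (median differences 7.74 and -9.15). Bgn, biglycan, was held by 30 of 31 fibroblasts at a median of 748 TPM and by 3 of 14 astroglia-like cells. Among the receptors for matrix, 1 of 13 compared genes was called in fibroblasts and 5 in astroglia-like cells, against 6.64% and 15.8% of all compared genes. Within P0 2 of 11 were called on the glial side, 1 of those 5 among them, against 19.5% of all genes compared there. Itga8, the integrin subunit that binds nephronectin, was held by 14 of 31 fibroblasts and by no glial cell, whereas Itgb8, which activates latent TGF-beta, was held by 6 of 14 astroglia-like cells and no fibroblast. Dag1, dystroglycan, the laminin receptor of glial endfeet, was held by 12 of 14 astroglia-like cells at a median of 116 TPM and by 17 of 31 fibroblasts at 23.8.

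Genes for making and sensing retinoic acid formed another fibroblast group, with 7 of 8 compared members called in fibroblasts and none in astroglia-like cells (median difference 4.79). Aldh1a2, the dehydrogenase that makes retinoic acid, was held by 24 of 31 fibroblasts at a median of 274 TPM and by 0 of 14 astroglia-like cells. Aldh1a1, its relative, was held by 20 of 31, and 17 fibroblasts held both enzymes. Stra6, the membrane receptor that takes up retinol, was held by 21 of 31 and Rdh10, which makes retinal, by 20 of 31. Rarb, a retinoic acid receptor and target, was held by 14 fibroblasts and no astroglia-like cell. Crabp2, which carries retinoic acid, did not pass the filter with 7 of 31 fibroblasts. The same 7 genes were called within P0, where 14.6% of 6227 compared genes were called in fibroblasts and 19.5% in astroglia-like cells. They were called without the cells of letter D too, where 7.98% of 7033 were called in fibroblasts. Both settings reuse cells of the main comparison and are no separate check.

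Transporters and junction proteins showed members of one family on opposite sides. Of 16 compared genes for handling amino acid transmitters and ions, 2 were called in fibroblasts and 10, Slc1a3 of the rule among them, in astroglia-like cells. The GABA transporters differed by subtype, with Slc6a13 in fibroblasts and Slc6a11, GAT3 of astrocytes, in 12 of 14 astroglia-like cells at a median of 105 TPM and in no fibroblast. Slc6a20a, a proline and glycine carrier, was held by 24 of 31 fibroblasts and no glial cell. Slc1a2, the glutamate transporter GLT-1 of maturing astrocytes, was held by 13 of 14 astroglia-like cells at 6.94 to 146 TPM over the class, below the lowest Slc1a3 there, and its highest value in a fibroblast was 0.54.

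Gap junction genes leaned to fibroblasts, with 3 of 4 compared connexins called there and none in astroglia-like cells. Gja1, connexin 43, was held by 29 of 31 fibroblasts at a median of 1206 TPM and by 12 of 14 astroglia-like cells at 189. Gjb6, connexin 30, stood on the list of astroglial markers, yet it was at 0 in all 14 astroglia-like cells and was held by 24 of 31 fibroblasts, with a median of 379 and a highest value of 3473 TPM. Gjb2, connexin 26, was likewise held by 24 fibroblasts and no glial cell, and 21 fibroblasts held both. The tight junction claudins separated by member: Cldn11 was held by 15 of 31 fibroblasts and 0 of 14 astroglia-like cells, and Cldn10 by 7 of 14 astroglia-like cells and 0 of 31 fibroblasts. Cdh2, N-cadherin, was held by every astroglia-like cell at 18.1 to 281 TPM and reached 1.41 in fibroblasts.

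**Figure D3:**
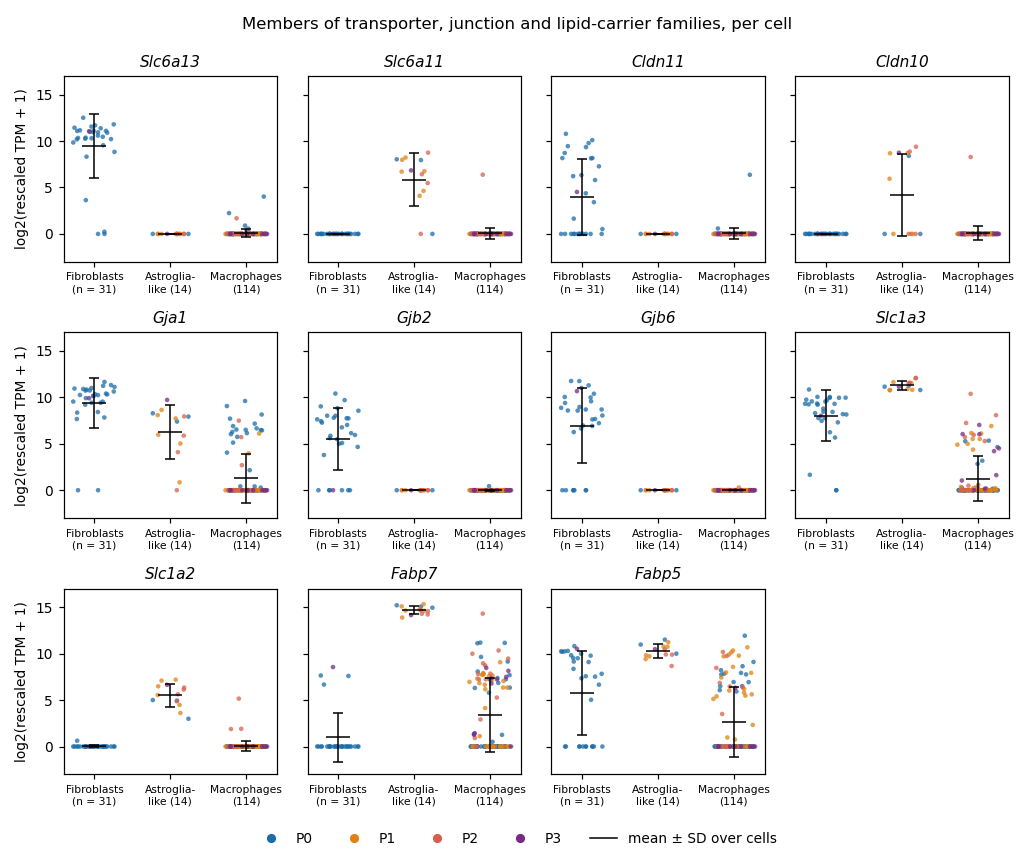
Level per cell, as log2(rescaled TPM + 1), of 11 genes from transporter, claudin, connexin and lipid carrier families, with cells colored by age and bars giving the mean and SD over cells. Slc6a13, Cldn11, Gjb2 and Gjb6 have points above 0 in fibroblasts and lie at 0 in all 14 astroglia-like cells, and Slc6a11 and Cldn10 show the reverse; Slc1a3 and Fabp7 are genes of the rule.

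Signalling genes were grouped by pathway. All 4 compared genes of the insulin-like growth factor system (Igf2, Igfbp2, Igfbp4, H19) were called in fibroblasts. Igfbp2, a binding protein, was nonetheless held by 13 of 14 astroglia-like cells at a median of 969 TPM, against 3576 in fibroblasts. In the BMP and TGF-beta pathway 5 of 14 compared genes were called each way. On the fibroblast side were the ligands Bmp2, Bmp5, Bmp6 and Bmp7 and the receptor Tgfbr2, with Bmp7 held by 26 of 31 fibroblasts at a median of 199.6 TPM and Bmp6 by 22. On the glial side were the receptor Bmpr1b, the ligand Tgfb2 and the targets Id1, Id2 and Id4. Bmpr1b was held by 7 of 14 astroglia-like cells and was at 0 in every fibroblast.

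Fibroblast growth factor genes were called in astroglia-like cells for 5 of 7 compared members and in fibroblasts for none. Fgfr3, a receptor of the glial lineage, was held by 11 of 14 astroglia-like cells at a median of 145 TPM and by 1 of 31 fibroblasts. Spry2, a feedback inhibitor of receptor tyrosine kinases, was held by all 14 at 173 to 1013 TPM and by 20 of 31 fibroblasts at a median of 32.2. Notch genes gave 4 of 10 compared members in astroglia-like cells (Notch1, Hes5, Hey1, Lfng), against 15.8% of all compared genes. In fibroblasts 1 was called, the ligand Jag1, near the 6.64% of all compared genes. Jag1 was held by 19 of 31 fibroblasts and 3 of 14 astroglia-like cells. It was called within P0 too, but not without the cells of letter D, where the same 4 glial calls were made. Of 12 compared Wnt genes 3 were called in fibroblasts (Wnt4, Wnt5a, Lgr4) and 2 in astroglia-like cells, the secreted inhibitors Sfrp1 and Sfrp2. Over all compared genes these shares were 6.64% and 15.8%, so the glial count was near that of any gene. The median of the Wnt list, -0.03, changed sign under several settings.

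Transcription factors of mesenchyme leaned to fibroblasts. Of 8 compared mesenchymal factors 6 were called in fibroblasts and none in astroglia-like cells (median difference 3.20). Tbx18, a T-box factor of mesenchyme and mural cells, was held by 25 of 31 fibroblasts at a median of 132 TPM, Osr1 by 24 and Foxc1, a forkhead factor needed for the meninges, by 18. None of the 3 was held by an astroglia-like cell. Zic1 and Zic4, zinc finger factors of dorsal tissues, were held by 17 and 18 fibroblasts, and Twist2 and Foxd1 did not pass the filter with 9 and 7.

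Fibroblasts varied among themselves in genes of the meningeal layers. The arachnoid marker Cldn11, on a list with Aldh1a2 and Slc6a13, was held by 15 of 31, the pial markers S100a6, Lama1 and Ngfr by 26, 21 and 13, and the dural markers Foxp1, Mgp, Fxyd5 and Dpt by 20, 9, 6 and 3. Epithelial genes of the arachnoid barrier, Cdh1, Krt8 and Krt18, were at 0 in all 31. Ptgds, the prostaglandin D synthase of the leptomeninges, was held by 12 of 31 cells with a highest value of 77317 TPM. All 12 also held Gjb2, and all 12 held the widely held Slc6a20a and Slc1a3 as well. Ogn, a small proteoglycan, was held by 13 fibroblasts, each of which held Gjb2 too. Of 31 fibroblasts 7 lacked Gjb2. These pairings were picked after the values were seen, from cells that share age and protocol, and some letters differed: Cldn11 was held by 9 of 16 fibroblasts of letter A and 3 of 12 of letter D, and Foxc1 by 12 of 16 and 3 of 12.

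Of the 12 genes farthest on the glial side, 6 stood on the list of astroglial markers, namely Aldoc, Ptprz1, Mt3, Bcan, Hes5 and Ttyh1. Aldoc, the aldolase isoform of astrocytes (ENSMUSG00000017390, GRCm38 chr11:78322968-78327781), had a lowest value of 102, a median of 2455 and a highest value of 10416 TPM in the 14 astroglia-like cells, and at most 0.41 in a fibroblast. Cpe, carboxypeptidase E (ENSMUSG00000037852, chr8:64592542-64693054), ran from 264 through a median of 4165 to 6019 TPM and was held by 5 of 31 fibroblasts at up to 129. Neither range met that of the fibroblasts, and the differences were -11.01 and -10.48.

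Ptprz1, a receptor phosphatase proteoglycan that binds pleiotrophin (ENSMUSG00000068748, chr6:22875502-23052916), ran from 199 to 2131 TPM and was at 0 in every fibroblast. Mt3, a metallothionein of brain, ran from 236 to 2891 TPM with a median of 1545 and reached 44.6 in 1 fibroblast. Ncan and Bcan, the lecticans neurocan and brevican, were held by all 14 glial cells at medians of 439.6 and 665 TPM and by no fibroblast. Hes5, a Notch target, was held by 13 of 14 at a median of 706 TPM, and the 1 cell from P3 was at 0. The 12 genes with the largest differences on this side also included Mmd2, Rtn1, Syt11, Ttyh1 and the noncoding Pantr1. The ranges of 10 of the 12 did not overlap, which a ranking by difference favours. The share of such genes among all compared genes is not given here. Within P0 all 12 differences kept their sign at 2 or more, in cells that had also ranked the genes, so this is no separate check.

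Genes of 2 metabolic lists stood on the glial side. All 14 compared genes of cholesterol synthesis were called higher in astroglia-like cells, with a median difference of -3.98, and so were all 8 compared genes of serine, glycine and folate metabolism, Aldh1l1 of the rule among them, with -4.48. Hmgcs1, the synthase that feeds the mevalonate pathway, was held by all 14 astroglia-like cells at 159 to 2698 TPM with a median of 621, by 6 of 31 fibroblasts at up to 666 and by 34 of 114 macrophages. Summed over the list, cholesterol genes had a median of 3864 TPM in astroglia-like cells (lowest 849) and 403 in fibroblasts (0 to 4473). Within the glial class the sum was 1848, 2733 and 6760 TPM in the 3 cells from P0, inside the range of the later ones.

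Phgdh, the first enzyme of serine synthesis, was held by all 14 astroglia-like cells at 308 to 3327 TPM with a median of 1496, and by 9 of 31 fibroblasts at up to 509. Psat1, the next enzyme, was held by all 14 at 39.9 to 1917 TPM and by 11 of 31 fibroblasts. Psph, the last step, was held by all 14 at a median of 172 TPM and by 15 of 31 fibroblasts. The mitochondrial folate enzyme Mthfd2 did not pass the filter and went the other way, with 8 of 31 fibroblasts and 1 of 14 astroglia-like cells. Within P0 13 of 15 compared cholesterol genes and 7 of 8 serine genes were called on the glial side, against 19.5% of all genes compared there.

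Because all compared members of both lists stood on one side, the lists' promoters were searched on both strands for 3 motifs, in the RefSeq table's 300 bases around the start (GRCm38.p6). The table matched 10 of 15 cholesterol genes and 10 of 12 serine genes, Aldh1l1 among the latter. The sterol regulatory element, spelled TCACNCCAC, was found in 1 of 10 cholesterol promoters, that of Hmgcs1, in 0 of 10 serine promoters and in 1.22% of all 27025 promoters. The amino acid response element, spelled TGATGNAAN, was found in 1 of 10, 0 of 10 and 4.04%. CCAAT was found in 9 of 10 promoters of either list. Among the called members alone it was found in 9 of 10 cholesterol and 7 of 8 serine promoters, against 41.9% of the promoters of genes higher in astroglia-like cells, 31.5% of those higher in fibroblasts, 40.2% of compared genes and 37.9% of all. The windows below lie upstream of the start and show that box in 2 genes of each list. They were chosen after these counts were seen, and capitals mark CCAAT on either strand (ATTGG on the other) and, in Hmgcs1, the sterol element. They lie at chr13:119690164-119690272 (Hmgcs1, plus strand), chr13:8885511-8885605 (Idi1, plus), chr3:98340104-98340212 (Phgdh, minus) and chr19:15925060-15925145 (Psat1, minus).
Hmgcs1: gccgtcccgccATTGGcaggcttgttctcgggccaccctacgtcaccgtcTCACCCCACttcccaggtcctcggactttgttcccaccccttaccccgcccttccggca
Idi1: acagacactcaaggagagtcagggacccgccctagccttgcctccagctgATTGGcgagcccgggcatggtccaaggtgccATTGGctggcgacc
Phgdh: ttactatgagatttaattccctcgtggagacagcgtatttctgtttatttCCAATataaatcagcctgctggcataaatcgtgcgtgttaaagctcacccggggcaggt
Psat1: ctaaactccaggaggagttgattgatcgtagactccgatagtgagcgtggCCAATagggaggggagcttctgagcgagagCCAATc
A match of letters is no evidence of binding, and no binding was measured.

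Lipid carriers went by member. Apoe was held by every cell of all 3 classes and was not called between fibroblasts and astroglia-like cells, at medians of 3633 and 7287 TPM, with 21573 in macrophages. Clu, clusterin, was held by 11 of 14 astroglia-like cells at a median of 438 TPM and by 1 of 31 fibroblasts, whereas Apod and Ptgds were on the fibroblast side. Dbi, the acyl-CoA binding protein, was held by all 14 glial cells at a median of 7714 TPM and by 29 of 31 fibroblasts at 638. Among the small lipid-binding proteins Fabp5 joined Fabp7 of the rule on the glial side, at a median of 1209.6 against 188 TPM.

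Neural progenitor and glial transcription factors were called in astroglia-like cells for 14 of 16 compared members and in fibroblasts for none (median difference -3.51). Sox9, a gliogenic factor, was held by all 14 astroglia-like cells at 53.2 to 472 TPM and by 2 of 31 fibroblasts at up to 23.4. Nfib was held by all 14 and by 12 fibroblasts. Olig1 and Olig2, factors of the oligodendrocyte lineage also found in astroglial progenitors, were held by 11 and 8 of 14, and 7 cells held both. The oligodendrocyte genes Sox10 and Gpr17 were at 0 in all 14. Gfap was held by 7 and the progenitor filament Nes by 10.

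The 14 astroglia-like cells differed by age in the forebrain factors of that list. Lhx2, a LIM factor of the early forebrain, was held by 0 of 3 cells from P0 and 7 of 11 later cells. Otx1, a homeobox factor of the cortex, was held by 0 of 3 and 8 of 11. Both genes were at 0 in all 3 cells from P0. Pax6 and Emx1, which did not pass the filter, were each held by 5 later cells and none from P0. Sox9, Nfia and Nfib were held by all 3 cells from P0 and all 11 later cells. For 0 of 3 the exact 95% interval reaches 70.8%, and for Otx1 in later cells it starts at 39%, so the intervals overlap. These genes were singled out after their values were seen, and the cells from P0 were labelled meninges while the others were labelled meninges and cortex.

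Cell cycle genes passed the filter for 5 of 19 members, of which 2, Mcm7 and Ccnd2, were called in astroglia-like cells and none in fibroblasts. Ccnd2, a cyclin of progenitors, was held by 12 of 14 astroglia-like cells at a median of 813 TPM and by 13 of 31 fibroblasts. Mki67, a marker of dividing cells, was held by 1 cell in each class.

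**Figure D4:**
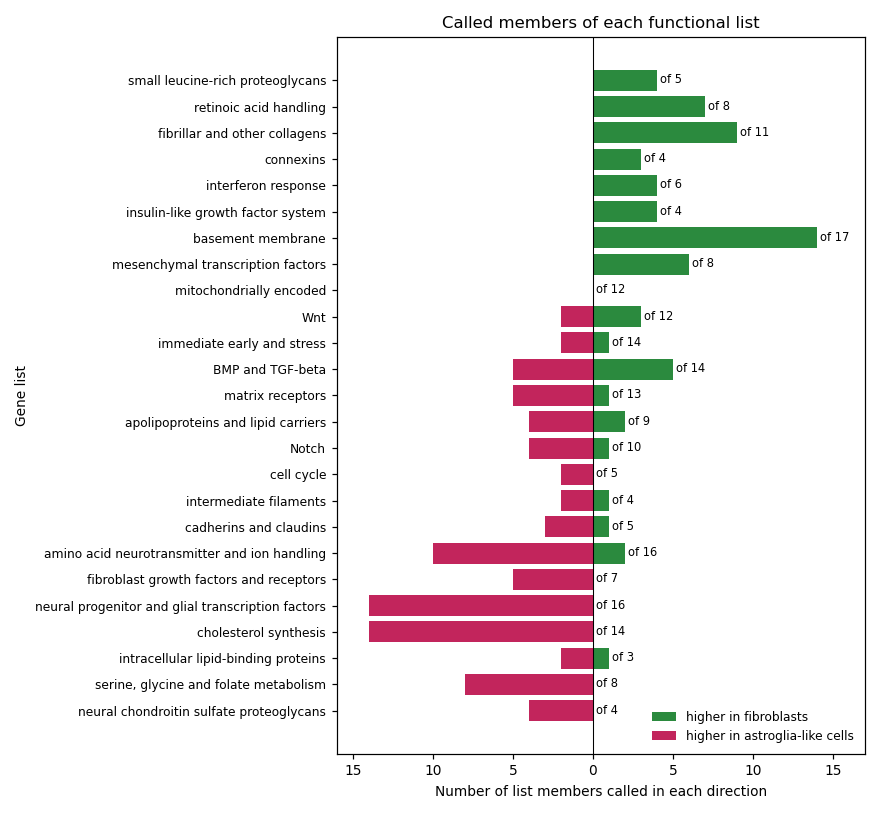
Number of genes in each list that were called higher in fibroblasts (green, to the right) or in astroglia-like cells (red, to the left), with the number compared at the end of each bar; lists are ordered by median difference, and the chemokine list, with 2 compared genes, is not drawn. Basement membrane (14 of 17) and collagens (9 of 11) lie to the right, cholesterol synthesis (14 of 14) and glial transcription factors (14 of 16) to the left, and none of 12 mitochondrial genes was called.

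Lists of general state varied in their counts. None of 12 compared mitochondrial genes was called, with a median difference of 0.54. Of 6 compared genes of the interferon response 4 were called in fibroblasts, against 6.64% of all compared genes. These 4 were the membrane proteins Ifitm1, Ifitm2 and Ifitm3 and B2m, the light chain of MHC class I. Ifitm2 was held by all 31 fibroblasts at a median of 1401 TPM and by 10 of 14 astroglia-like cells at 287, while the induced genes Isg15 and Ifit1 were each held by 1 fibroblast and no glial cell. Of 14 compared immediate early genes 1 was called in fibroblasts (Ier3) and 2 in astroglia-like cells (Jun, Egr1), near the 6.64% and 15.8% of all compared genes. Fos was at a median of 29.3 TPM in fibroblasts and 39.7 in astroglia-like cells. All 3 astroglia-like cells from P0 held Fos and Egr1, and 4 of 11 later ones held each. Within P0 the list gave 8 of 16 on the glial side, against 19.5% of all genes compared there.

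Both classes were then set against the same 114 macrophages, so the comparisons share their control cells. Of 6676 genes compared over the 3 classes, fibroblasts were higher in 666 (9.98%) and lower in 619 (9.27%), and astroglia-like cells were higher in 1297 (19.4%) and lower in 565 (8.46%). Called higher in both were 299 genes (4.48%), or 44.9% of the fibroblast list and 23.1% of the glial list. Called lower in both were 404 (6.05%). Of the 299, 23 were also called higher in fibroblasts than in astroglia-like cells, 44 the other way, and 137 differed by less than 1 on the log2 scale between the classes.

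The leading shared gene was a secreted growth factor. Ptn, pleiotrophin, the heparin-binding ligand of the glial receptor Ptprz1 (ENSMUSG00000029838, GRCm38 chr6:36714929-36810220), ran from 869 through a median of 7103 to 13884 TPM in fibroblasts. In astroglia-like cells it ran from 1283 through 3965 to 8221 TPM, and 18 of 114 macrophages held it, at up to 1739.5 in the 1 macrophage with the astroglial genes of the rule and 563 in the others. All 45 cells of both classes held Ptn, at overlapping levels, with differences from macrophages of 11.46 and 10.50. Its relative Mdk, midkine, was held by 30 of 31 fibroblasts at a median of 735 TPM, 13 of 14 astroglia-like cells at up to 529 and 11 of 114 macrophages, and was called higher in fibroblasts, with a difference of 2.06. The receptor Ptprz1 itself was found in astroglia-like cells and in no fibroblast.

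Sparcl1, an antiadhesive matrix protein of astrocytes, was held by 30 of 31 fibroblasts at a median of 1970.4 TPM and by 12 of 14 astroglia-like cells at 1659.8, against 6 of 114 macrophages. Of the 3 astroglia-like cells from P0 it was held by 1, and by all 11 later cells. Htra1, a secreted protease, had the same split, in 1 of 3 and 11 of 11, and was held by 23 of 31 fibroblasts. The P0 astroglia-like cell that held Sparcl1 and Htra1 was the same one, of letter D. Vcam1, an adhesion molecule, was held by 28 of 31 and 12 of 14 at medians of 249 and 213 TPM and by 5 macrophages.

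Among intracellular proteins, Cnn3, an actin-binding calponin, was held by 30 of 31 fibroblasts, all 14 astroglia-like cells and 14 macrophages. Id3, an inhibitor of basic helix-loop-helix factors and BMP target, was held by 30 and 12 cells at medians of 525 and 473 TPM. Nedd4, a ubiquitin ligase, was held by 30 and 14 cells and by 4 macrophages, with a difference of -0.28 between the classes. Hmgn3, Gpx8 and Igfbp2 were also among the 12 leading genes, of which 11 are described here. None of the 12 had ranges that were apart between fibroblasts and astroglia-like cells, which the shared rule favours.

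**Figure D5:**
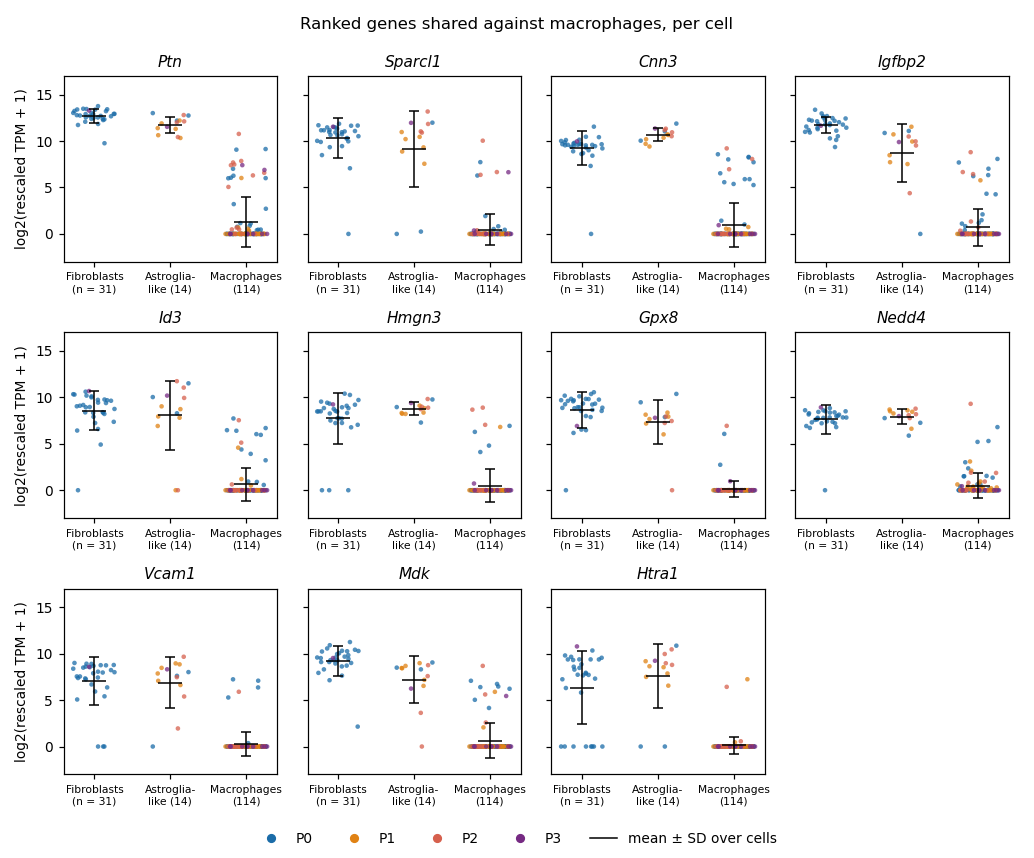
Level per cell, as log2(rescaled TPM + 1), of 11 of the 12 genes ranked highest by the smaller of the fibroblast and astroglia-like differences from macrophages, with cells colored by age and bars giving the mean and SD over cells. Ptn lies well above 0 in all 31 fibroblasts and all 14 astroglia-like cells, while most of the 114 macrophages lie at 0 for every gene shown.

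Several shared genes belonged to lists described above. Gja1, Slc6a9, Slc38a3, Nfia, Nfib, Zbtb20, Vim, Agrn, Fbln2, Fgfr1 and Fgfr2 were higher in both than in macrophages. Of 17 transmitter and ion genes compared over the 3 classes 6 were shared, the rule's Slc1a3 among them, and of 16 basement membrane genes 2. Vim, vimentin, was held by 27 of 31 fibroblasts at up to 877 TPM and by 13 of 14 astroglia-like cells at a median of 553.

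The leading genes lower in both were macrophage genes. All 20 macrophage markers, Csf1r of the rule among them, were called lower in both classes, which the choice of macrophages favours. Tyrobp, an adaptor of myeloid receptors, had a median of 4975 TPM in macrophages and was held by 3 of 31 fibroblasts and 1 of 14 astroglia-like cells, and C1qb, a chain of complement C1q, by 2 and 1. Of 18 immediate early and stress genes compared over the 3 classes 15 were lower in both, with Fos held by 107 of 114 macrophages. The retinol dehydrogenase Dhrs3, unlike the rest of the retinoic acid list, was also lower in both, being held by 108 macrophages at a median of 455 TPM.

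With P0 fibroblasts set against P0 macrophages and P1 to P3 astroglia-like cells against macrophages of those ages, 316 genes were higher in both, and 253 of the 299 were among them. With P0 cells only in all 3 classes, 311 genes were higher in both, and fewer of the 299, namely 202, were among them. Several single calls were not met within P0: the difference was 0.63 for Tgfb2 and 1.48 for Mcm7, the opposite direction, and 1.54 for Gja1, 1.01 for Wnt4, 1.22 for Ifitm2, 0.59 for Mdk, -0.50 for Sfrp1 and -0.82 for Nes, all short of a call. Glial calls also made within P0 were 2 of 5 for fibroblast growth factors, 3 of 5 for BMP and TGF-beta and 9 of 14 for glial factors. These lists gave 4 of 5, 3 of 13 and 10 of 12 compared genes on the glial side there, against 19.5% of all genes. All 9 collagens and all 14 basement membrane genes called in fibroblasts were called within P0 too. Cells of P0 are also cells of the main comparison, so these repeats are no separate check. Within P0 911 genes were called higher in fibroblasts and 1214 in astroglia-like cells, with 384 of the 449 and 563 of the 1065 among them.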

How the data were processed

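Gene levels were measured by polyadenylated RNA sequencing in 179 single cells. The authors deposited 3 tables over 47729 gene identifiers: TPM, FPKM and a TMM-scaled TPM signal. The submitters' processing notes list, without roles or order, the tools STAR 2.5.2a, bcl2fastq 2.17.1.14, edgeR and RSEM 1.2.30 and the build mm10. Their annotation is not given in the sources used here. Symbols were matched for 47224 identifiers, and coordinates are from GENCODE on GRCm38. The deposited TPM values gave the classes and were rescaled to 1000000 per cell; the deposited FPKM values gave depth alone, and the deposited TMM signal an alternative. Differences are of mean log2(TPM + 1) over cells, computed with python 3.11.15, pandas 2.3.3 and scipy 1.17.1. Cells are not replicates and no animal is named, so no test was made. Intervals are exact (Clopper-Pearson, 95%) and cover counting error alone. The code was tested on simulated data. Genes named are the 12 with the largest differences in each direction, the 12 leading shared genes in each direction and examples from 26 functional and 11 marker lists, many of them chosen after their values were seen. The members, lists and rules were chosen with earlier results of these data known. Doublets were not called; 2 fibroblasts and 2 astroglia-like cells held at least 5 macrophage, neuron, mural or endothelial markers, 1 fibroblast held 5 erythroid markers, and 10 fibroblasts held at least 5 astroglial markers, counting Slc1a3 and Fabp7 of the rule. Ensembl identifiers whose symbol was shared, 60 symbols in all, were kept apart. Alternatives covered scaling, pseudocount, filter, class thresholds, name letters, age, cells with markers of a second class and macrophages matched by age. Some genes covered by these rules are not reported here.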

Additional observations from a re-analysis of the deposited data

How the results depend on the processing

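Class thresholds of 5 TPM, or of 10 on rescaled values, gave the same number of cells in each class at every age. Thresholds of 50 TPM gave 112 macrophages and the same numbers of fibroblasts and astroglia-like cells, but not all the same cells. The lowest fibroblast, at 13.1 TPM of Col1a1, and the lowest astroglia-like cell, at 33.5 TPM of Aldh1l1, fell below 50, and other cells took their places. At 50 TPM 462 genes were called higher in fibroblasts and 1056 in astroglia-like cells, with 417 of the 449 and 925 of the 1065 among them. A pseudocount of 10 left 206 genes higher in fibroblasts, 339 higher in astroglia-like cells, 74 shared higher and 232 shared lower against macrophages, and one of 0.1 gave 548 shared higher. Asking for a mean class share of 0.4 left 242 and 614 genes and 137 shared lower. P0 cells alone, with 3 astroglia-like cells, gave 911 higher in fibroblasts. The other 47 of 56 counts stayed within 1.5 times. Without letter A the genes were 466 and 1531, without D 561 and 1072. The median over all compared genes moved from -0.58 to -0.74 on raw TPM, -0.28 and -0.88 at pseudocounts of 10 and 0.1, -0.10 without the filter, -0.43 without D, -0.90 without A and -0.72 at P0. Of 616 differences of 44 genes, the 24 ranked between the classes and 20 chosen examples, 552 moved by less than 1 SD over cells. No gene with a main difference of at least 2 in size changed sign, and smaller differences were not checked for sign. Tgfb2 and Mcm7, whose sign turned within P0, were not among the 44. Without cells holding markers of a second class 302 genes were shared higher, 271 of the 299 among them. Of 336 list medians 7 changed sign: Wnt to 0.047 at a pseudocount of 10, 0.058 without D and 0.28 without C, lipid-binding proteins to 0.38 and immediate early genes to 0.061 without the filter, and intermediate filaments to 0.62 and chemokines to -2.97 at P0. The cause was not tested. No paired analysis was possible because the cells carry no replicate numbers or animals. With 1 sample per class every statement is limited to these cells, and a gene at 0 in 14 or fewer cells may be present at shares that such a count allows.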
